A study of Macaca mulatta with 8 samples.

Results

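The genes described here act in protein traffic between the endoplasmic reticulum (ER) and the Golgi apparatus. They were taken by a rule on the gene symbol: KDELR, TMED, TRAPPC, GOLG, SAR1, COPA, COPB, COPE, COPG, COPZ, SEC or COG followed by a digit, and ARF1 to ARF6. The choice was made with earlier results of these data known, KDELR2 among them. The array named 64 such genes, of 14132 genes named by a single symbol, with 135 probe sets of 52766 that were not controls. The rule also takes in genes whose symbols start with SEC but whose products work elsewhere, such as the translocon subunits and the SEC14-like lipid-transfer proteins, and these are given at the end of the family-by-family account.

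The samples were oocytes of the rhesus macaque, Macaca mulatta, at metaphase II, the mature stage at which the egg waits for fertilization. The in vitro group consisted of 4 arrays of oocytes that had matured in culture, and the in vivo group of 4 arrays of oocytes that had matured in the animal. Each array carried RNA of a pool of 4 oocytes, amplified in 2 rounds and hybridised to a single-colour Affymetrix rhesus array. The labels name no animal, age, hormone treatment or culture medium, and p-values here measure the spread between these pools.

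Secretory proteins leave the ER in vesicles coated with COPII, which the GTPase SAR1 assembles from the SEC23, SEC24, SEC13 and SEC31 proteins, and p24 (TMED) proteins help to select their cargo. TRAPP, COG and the golgins tether vesicles to the Golgi, and SEC22 SNAREs take part in fusion. Vesicles coated with COPI, recruited by ARF GTPases, carry escaped ER proteins back, and KDEL receptors in the Golgi bind such proteins by a short signal at their ends. In an oocyte this route feeds the zona pellucida, the cortical granules and the growth factors that the oocyte secretes.

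Values are MAS5 signals, an Affymetrix summary of each probe set on a linear scale. The trimmed mean of every array was 150, and each array had 49.9% to 60.9% of its probe sets above background, taken as the 95th percentile of controls whose sequences were not spiked in. Background ran from 15.7 to 27.0. Of 8 oocyte markers, 7 were on the array, and these 7 were above background on every array. The summed signal of 13 cumulus and granulosa markers was 17549 to 24865 on in vitro arrays and 17703 to 22391 on in vivo arrays. SERPINE2 weighed most in that sum, with means of 12488 in vitro and 13703 in vivo. Of these markers 2 passed as higher in vitro (limma adjusted p under 0.05), INHBA (means 1483 and 165) and STAR (1181 and 191). For 9 theca, stroma and endothelium markers the summed signal was 625.3 to 1305.1 on in vitro arrays and 511.5 to 757 on in vivo arrays, and none passed. For 5 blood and immune markers it was 60.0 to 146.8 on in vitro arrays and 144.2 to 238.8 on in vivo arrays. The ratio of 3' to 5' control probe sets of EEF1A1, in which a higher value means less signal far from the 3' end, was 3.91, 4.91, 4.28 and 3.59 on in vitro replicates 1 to 4, against 2.70, 7.70, 2.72 and 12.8 on in vivo replicates 1 to 4.

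Of the 135 probe sets, 90 were above background on all 8 arrays, and 5 on none. Testing needed a mean log2 level in the upper 50% of all probe sets, which 105 probe sets of 57 genes reached and 30 did not. A TRAPPC13 probe set lay just outside that limit, with a mean log2 level of 4.94, and a GOLGA2 probe set was the nearest inside, at 5.10. The genes with no tested probe set were ARF4, COG3, COPG2, SEC14L3, SEC14L4, SEC14L5 and TMED6.

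The comparison asked which of these transcripts distinguish oocytes from culture from those of the animal. Of 4 KDELR2 probe sets, 2 were much lower in vitro, and no probe set of another tested gene passed. In the limma fit over 26383 probe sets, 2 of the 105 tested probe sets were lower in vitro at an adjusted p under 0.05, both of KDELR2, where 0.0417% of all probe sets were lower by that rule. None was higher, where 0.102% of all were. When an unadjusted p under 0.05 with a 2-fold difference was asked for instead, 5 were lower in vitro, 3 of KDELR2 with 1 each of TRAPPC2L and GOLGA2, where 1.38% of all probe sets were. By this criterion 0 were higher, where 1.24% of all were. An unadjusted p under 0.05 alone was met by 7 probe sets that were higher (4.7% of all) and 8 that were lower (5.53% of all), together 14.3% of the 105 against 10.2% of all. These genes were chosen with KDELR2 already known to differ, so the counts that include it add no support to a difference. Its probe sets MmugDNA.36491.1.S1_s_at and MmugDNA.21919.1.S1_s_at reached the level needed for testing only through their in vivo arrays.

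KDELR2 encodes 1 of the 3 KDEL receptors. It had 4 probe sets, of which 3 carry the suffix that Affymetrix gives to probe sets whose probes can match more than 1 transcript. On the first of these, MmugDNA.36491.1.S1_s_at, the signals were 2.6, 2.2, 3.6 and 18.9 on in vitro replicates 1 to 4, against 1016, 374.1, 182.6 and 70.4 on in vivo replicates 1 to 4. Every in vitro array was at or below background, every in vivo array was above it, and the groups did not overlap. The means were 6.83 ± 8.07 in vitro and 411 ± 423 in vivo (SD, n = 4 each), which makes the signal at least 9.22-fold lower in vitro when the dim arrays are set at background. Leaving out in vivo replicate 1 made the bound 5.96-fold, and leaving out in vivo replicate 4 made it 14.0-fold. The fit, which takes the dim signals as measured, gave a log2 difference (in vitro minus in vivo throughout) of -4.33 ± 0.61 (SE; limma adjusted p = 0.00764). Its size depends on the value added before taking logs, at -5.54 with 1 and -3.17 with the median signal of 27.7. The mean log2 level was 3.78 in vitro and 8.11 in vivo around a limit for testing of 4.95, so this probe set was tested only through its in vivo arrays. In RNA of pooled oocytes, fewer oocytes carrying a transcript and less of it in each cannot be told apart.

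The same order of arrays appeared within the in vivo group on MmugDNA.18446.1.S1_s_at. Its signals were 20.2, 24.1, 29.2 and 52.1 on in vitro replicates 1 to 4, against 1432, 657.1, 370.4 and 130.4 on in vivo replicates 1 to 4. The lowest in vivo array was thus above the highest in vitro array, and the dimmest in vivo pool and the brightest in vitro pool were again both replicate 4. The log2 difference was -3.64 ± 0.53 (SE; limma adjusted p = 0.00861). Without in vivo replicate 2, in vitro replicate 1 or in vitro replicate 2, this probe set missed the threshold, at adjusted p of 0.0505, 0.0537 and 0.0510 in the same limma fit. In a limma fit whose variance did not follow intensity, both KDELR2 probe sets missed it, at adjusted p of 0.0932 and 0.127.

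The other KDELR2 probe sets were dimmer. On MmugDNA.21919.1.S1_s_at the signals were 16.2, 24.4, 14.2 and 23.2 in vitro, against 175.3, 61.9, 85.1 and 18.8 in vivo. The groups overlapped through in vivo replicate 4 alone, and the log2 difference of -1.46 did not pass (limma adjusted p = 0.328). The mean log2 level of this probe set was 4.77 in vitro and 6.24 in vivo around the limit of 4.95. Like MmugDNA.36491.1.S1_s_at, it was tested only through its in vivo arrays. The fourth, an Mmu-series probe set, fell below the limit for testing, with signals of 11.2, 2.9, 37.6 and 20.0 in vitro and 93.3, 19.7, 21.8 and 1.0 in vivo. It was above background on 1 in vitro array and 2 in vivo arrays, so it shows no order of the groups beyond a single brighter pool, in vivo replicate 1. It was the only KDELR2 probe set without the suffix for probes that can match more than 1 transcript. What else the 3 suffixed probe sets match was not tested.

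**Figure D1:**
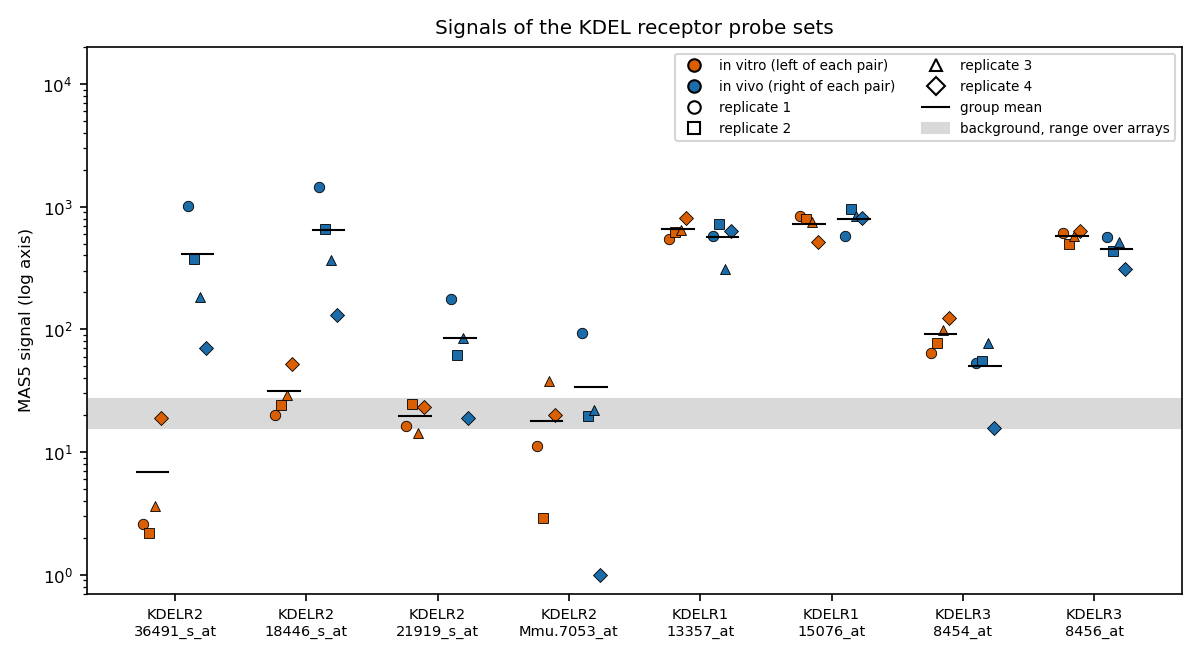
MAS5 signal (log axis) of every probe set of KDELR2, KDELR1 and KDELR3 on each array, in vitro left and in vivo right in each pair, with the group mean as a line and the range of background over arrays in grey. On KDELR2 MmugDNA.36491.1.S1_s_at the in vitro arrays sit at 2.2 to 18.9 and the in vivo arrays at 70.4 to 1016, while the groups of KDELR1 and KDELR3 overlap.

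KDELR1 and KDELR3 encode the other KDEL receptors, which bind the same kind of signal. KDELR1 MmugDNA.13357.1.S1_at had signals of 543.2, 623.6, 641.0 and 800.7 in vitro, against 580.2, 718.6, 312.4 and 629.7 in vivo (log2 difference 0.27). Its other probe set had 844.2, 790.7, 744.8 and 517.6 in vitro, against 576.3, 962.0, 838.3 and 803.4 in vivo (log2 difference -0.13). Neither probe set of KDELR1 separated the groups. KDELR3 MmugDNA.8454.1.S1_at was at 63.7, 77.4, 99.2 and 124.3 in vitro, against 52.9, 55.2, 77.0 and 15.7 in vivo, a log2 difference of 0.87 that did not pass (limma adjusted p = 0.455). Its brighter probe set was at 607.6, 500.1, 574.0 and 635.6 in vitro, against 561.8, 437.5, 510.0 and 312.9 in vivo (log2 difference 0.37). Both KDELR3 probe sets thus had higher means in vitro, with groups that overlapped.

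Whether the KDEL receptors changed unequally was tested within arrays. For each pair of tested probe sets the log2 difference on an array was compared between the groups by an exact two-sided permutation test over 70 assignments, whose smallest possible p is 0.0286. Of the 12 pairs that set a KDELR2 probe set against KDELR1 or KDELR3, 10 reached that smallest value, with a p of 0.0462 after adjustment over all 21 pairs. When an in vivo array was left out, 10 to 12 pairs passed, but 0 did when any in vitro array was left out. The exceptions were MmugDNA.21919.1.S1_s_at against the probe sets of KDELR1, with exact permutation p of 0.0857 and 0.114. Pairs among KDELR1 and KDELR3 probe sets gave exact permutation p of 0.114 to 0.8. KDELR2 was already known to differ when these pairs were set up, and the tests use the same arrays as the fit, so they describe that difference and add no support to it.

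The KDELR2 probe sets also differed from each other in size. The log2 difference of MmugDNA.36491.1.S1_s_at minus that of MmugDNA.21919.1.S1_s_at was -2.87 (exact permutation p = 0.0286). Against MmugDNA.18446.1.S1_s_at the gap was -0.69 (exact permutation p = 0.0286), a gap whose p was 0.629 when the median signal was added before taking logs. MmugDNA.18446.1.S1_s_at minus MmugDNA.21919.1.S1_s_at gave -2.18 (exact permutation p = 0.0286). All these gaps rest on in vitro signals at or near background, so their sizes are not exact. An exact permutation p of 0.0286 is the smallest possible, and it was 0.0462 after adjustment over all 21 pairs. These probe sets were compared with KDELR2 already known to differ, and some were tested only through their in vivo arrays. The tests therefore describe the gaps and add no support to them. Genes that lie beside KDELR2 in RefSeq's annotation were looked at after these values were seen. INTS15, ZDHHC4, GRID2IP, DAGLB, RAC1 and FAM220A had 11 tested probe sets, of which 0 passed, with log2 differences from -0.90 for DAGLB to 0.22 for RAC1 and a smallest limma adjusted p of 0.244. The DAGLB probe set at -0.90 had 116, 180.3, 139.7 and 142.1 in vitro, against 271.8, 236, 417.5 and 208.5 in vivo, without overlap. The other tested DAGLB probe set was at -0.08. ZDHHC4 probe sets were at -0.66, -0.64, -0.09 and 0.10.

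Other values also differed between the pools. Blood and immune markers were above background for 0 to 3 of 5 genes on in vitro arrays and for 3 to 4 on in vivo arrays, and their summed signals are given above. CD68, of macrophages, was above background on 0 in vitro and 4 in vivo arrays, and PTPRC, of leukocytes in general, on 0 and 1. HBB, of red cells, and AIF1, of macrophages, were each above it on 1 in vitro and 3 in vivo arrays, and S100A8, of neutrophils, on 2 and 4. Background was set for each array, and many of these signals lay near it. CD68 had 20.5, 4.7, 17.9 and 20.6 in vitro, against 119.1, 15.9, 31.9 and 29.8 in vivo, with groups that overlapped (limma adjusted p = 0.525). Of the 4 blood and immune markers tested, none passed. The part of these markers in the KDELR2 difference was not tested. The in vivo array with the highest EEF1A1 3' to 5' ratio, replicate 4, had the lowest KDELR2 signals of its group on all 4 probe sets. The other in vivo arrays did not follow the order of the ratio. Replicates 1 and 3, at ratios of 2.70 and 2.72, had 1016 and 182.6 on MmugDNA.36491.1.S1_s_at, and replicate 2, at 7.70, had 374.1. A fit with that ratio as a covariate, which tests no cause, gave log2 differences of -4.64 for MmugDNA.36491.1.S1_s_at and -3.93 for MmugDNA.18446.1.S1_s_at (limma adjusted p of 0.000359 and 0.000351). It gave -1.75 for MmugDNA.21919.1.S1_s_at, which then passed (limma adjusted p = 0.0341). Calls became more frequent in general under this covariate, at 292 of all 26383 probe sets, against 38 without it. The 3' to 5' ratios of beta-actin and GAPDH were highest on in vivo replicate 2 instead, at 150 and 49.4, against 108 and 24.8 on in vivo replicate 4. With the beta-actin ratio as a covariate, MmugDNA.36491.1.S1_s_at was at -4.36 and MmugDNA.18446.1.S1_s_at at -3.66 (limma adjusted p of 0.00785 and 0.00995). MmugDNA.21919.1.S1_s_at did not pass in that fit, and 58 of all probe sets did.

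Outside the KDEL receptors none of the 98 tested probe sets passed, in a design that recovered 18.0% of simulated 2-fold changes. Their median log2 difference was -0.04, against 0.01 for all tested probe sets, and the median size without regard to sign was 0.22, against 0.26 for all. They ran from -1.08 to 0.63. Of all 105 with the KDEL receptors, 60 were below 0, which is 57.1% against 49.3% of all. Groups that did not overlap were seen at 3 of the 105 probe sets (2.86%, against 6.28% of all). They were the KDELR2 probe sets that passed, lower in vitro as were 3.11% of all, and a SEC24A probe set, higher in vitro as were 3.17% of all. The spread within the in vivo group was the larger at 71 of 105 probe sets (67.6%), close to the 66.3% of all probe sets.

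**Figure D2:**
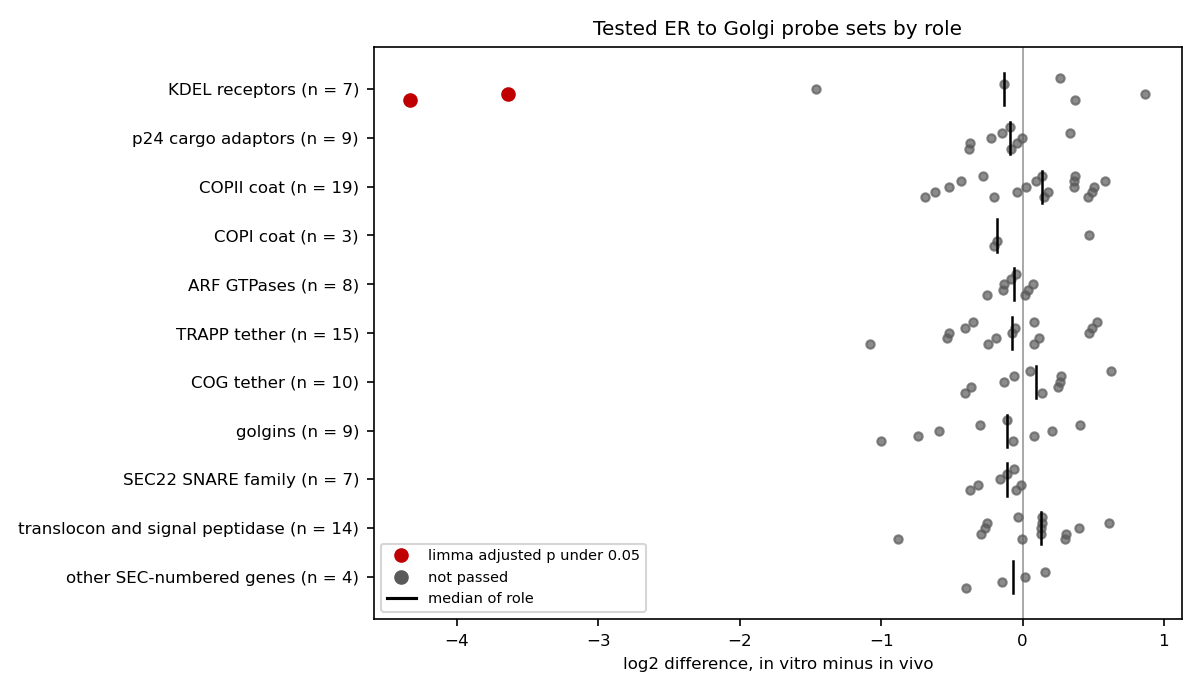
Log2 difference (in vitro minus in vivo) of each of the 105 tested probe sets, grouped by role, with the median of each role as a line and limma adjusted p under 0.05 in red. The KDELR2 probe sets at -4.33 and -3.64 stand alone, and all other probe sets except KDELR2 MmugDNA.21919.1.S1_s_at lie between -1.08 and 0.87.

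The COPII coat was the largest family, with 19 tested probe sets of 11 genes. None passed. By an unadjusted p under 0.05, 3 were higher (4.7% of all) and 2 lower (5.53% of all) in vitro. SEC31A, a subunit of the outer coat, and SEC24A, a cargo-binding subunit of the inner coat, had differences of opposite sign. SEC31A MmuSTS.172.1.S1_at had 1246, 1390.3, 1159 and 1107 in vitro, against 2518, 1406, 2668 and 1332 in vivo, a log2 difference of -0.62 (limma adjusted p = 0.378). The other SEC31A probe sets had log2 differences of -0.52 and -0.69. On all of them in vivo replicates 1 and 3 were the high arrays, while in vivo replicates 2 and 4 lay within or near the in vitro range. In vivo replicates 1 and 3 are also those with the lowest EEF1A1 ratio, and with that ratio as a covariate MmuSTS.172.1.S1_at passed as lower in vitro (log2 difference -0.76, limma adjusted p = 0.0329), among the 292 of all probe sets that then passed.

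SEC24A MmugDNA.37864.1.S1_at had 505.5, 322.7, 490.6 and 347.4 in vitro, against 267.2, 317.1, 267.3 and 292.4 in vivo. These groups did not overlap, but by only a few units, and the log2 difference of 0.51 did not pass (limma adjusted p = 0.423). SEC24A MmugDNA.37865.1.S1_at had 1718, 1255, 1188 and 986.6 in vitro, against 763.5, 1039, 556.1 and 1128 in vivo (log2 difference 0.58, limma adjusted p = 0.421). There the groups overlapped, and a dimmer SEC24A probe set had a log2 difference of 0.15. SEC13, another subunit of the outer coat, had 1229.6, 1435, 1077 and 1207 on its dimmer probe set in vitro, against 1080.3, 877.9, 771.1 and 798.0 in vivo (log2 difference 0.49, limma adjusted p = 0.365). Its other, brighter probe set had nearly equal means, 3012 ± 566 in vitro and 3009 ± 857 in vivo (SD, n = 4 each). SEC23A, a GTPase-activating subunit of the inner coat, had a tested probe set at a log2 difference of 0.46. A dim one at 26.7, 20.3, 27.6 and 35.3 in vitro, against 13.5, 17.2, 18.2 and 12 in vivo, separated the groups near background and was not tested. SAR1A and SAR1B, the GTPases that start coat assembly, had log2 differences from -0.20 to 0.37.

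**Figure D3:**
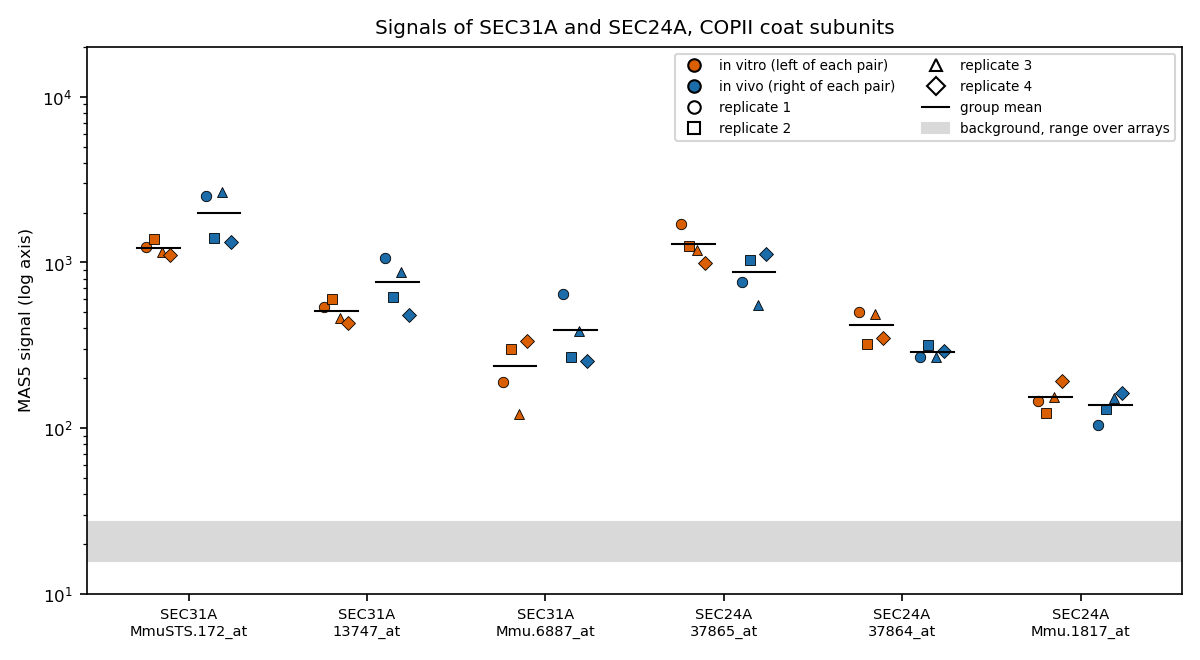
MAS5 signal (log axis) of the tested SEC31A and SEC24A probe sets on each array, in vitro left and in vivo right in each pair, with the group mean as a line and the range of background over arrays in grey. In vivo replicates 1 and 3 (circle and triangle) are high on SEC31A, and the in vitro means of SEC24A are above its in vivo means.

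The p24 proteins span the membrane of COPII and COPI vesicles and bind cargo. None of their 9 tested probe sets passed or reached an unadjusted p under 0.05, and 8 had a log2 difference below 0, between 0.00 and -0.38. TMED10, a core subunit of the p24 complexes, had 1752, 2572, 1676 and 2507 on MmugDNA.14828.1.S1_at in vitro, against 2733, 3144, 3938 and 1613 in vivo (log2 difference -0.38, limma adjusted p = 0.639). The groups overlapped, and a dim TMED10 probe set gave 0.34. TMED3 had 307.9, 417.4, 323.5 and 412.5 in vitro, against 462.7, 350.9, 648.2 and 308.3 in vivo (log2 difference -0.23), again with in vivo replicates 1 and 3 high. TMED6 was above background on 0 arrays.

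The COPI coat was represented by the zeta subunits COPZ1 and COPZ2 and by COPG2, a gamma subunit. COPZ1 MmugDNA.15344.1.S1_at had 236.2, 278.0, 236.0 and 237.9 in vitro, against 267.8, 230.5, 378.6 and 281.1 in vivo (log2 difference -0.20). COPZ2 had a log2 difference of 0.47 near background. Neither passed or reached an unadjusted p under 0.05, and COPG2 was too dim to be tested. Among the ARF GTPases, ARF1 recruits the COPI coat. ARF1 MmuSTS.2843.1.S1_at had 6466, 6969, 6346 and 5337 in vitro, against 5358, 6448, 5465 and 6619.8 in vivo, a log2 difference of 0.07 with a 95% interval of -0.25 to 0.40. The 8 tested ARF probe sets of ARF1, ARF3, ARF5 and ARF6 lay between -0.25 and 0.07 (0 at an unadjusted p under 0.05), the narrowest range among families with at least 7 tested probe sets.

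TRAPP is a multisubunit tether and exchange factor for RAB GTPases. None of its 15 tested probe sets passed. At an unadjusted p under 0.05, 1 was higher (4.7% of all) and 1 lower (5.53% of all). TRAPPC2L MmugDNA.16031.1.S1_at had 75.3, 45.8, 48.8 and 53.5 in vitro, against 189.3, 109.8, 170.4 and 66.9 in vivo. In vivo replicate 4 fell within the in vitro range, and the log2 difference was -1.08 ± 0.32 (SE; limma adjusted p = 0.277). With the EEF1A1 ratio as a covariate it passed, at -1.26 (limma adjusted p = 0.0236), as 292 of all probe sets did. Its other probe set went the other way, at a log2 difference of 0.53. TRAPPC13 had 808.7, 959.7, 758.3 and 1066 on its brightest probe set in vitro, against 782.4, 685.3, 552.2 and 570.3 in vivo (log2 difference 0.47, limma adjusted p = 0.416), and -0.35 on a dimmer probe set. TRAPPC12 and TRAPPC2 had log2 differences of -0.53 and -0.52, each with in vivo replicate 3 as its brightest array.

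COG tethers vesicles that move back within the Golgi, and 6 of the 7 COG genes found on the array by the symbol rule had 10 tested probe sets. None passed, and 1 was higher at an unadjusted p under 0.05, as were 4.7% of all probe sets. COG7 came nearest, with 258.1, 256.6, 180.9 and 244.7 in vitro, against 160.7, 143.3, 97.4 and 210.0 in vivo (log2 difference 0.63, limma adjusted p = 0.411). Only in vivo replicate 4 and in vitro replicate 3 brought its groups together. COG1, COG2, COG4, COG5 and COG6 lay between -0.41 and 0.27. COG5 MmugDNA.19346.1.S1_at was among the steadiest probe sets, at 1694 ± 61.04 in vitro and 1548 ± 220.4 in vivo (SD, n = 4 each).

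Golgins are long coiled-coil proteins on the Golgi surface. None of their 9 tested probe sets passed. At an unadjusted p under 0.05, 0 were higher (4.7% of all) and 2 lower (5.53% of all). GOLGA2, also called GM130, had 90.6, 61.9, 15.1 and 64.9 on MmugDNA.17931.1.S1_at in vitro, against 112.4, 113.4, 127.6 and 87.5 in vivo (log2 difference -1.004, limma adjusted p = 0.396). The low in vitro array was replicate 3. The other GOLGA2 probe sets gave 0.41, 0.21, -0.30 and -0.59. GOLGB1, or giantin, had 132.6, 168.4, 157.7 and 181.4 on MmugDNA.27710.1.S1_at in vitro, against 375.1, 161.8, 520.9 and 166.4 in vivo (log2 difference -0.74, limma adjusted p = 0.470). As with SEC31A, in vivo replicates 1 and 3 were high and the other in vivo arrays lay within the in vitro range, and another GOLGB1 probe set gave 0.08.

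SEC22A, SEC22B and SEC22C belong to the SEC22 SNARE family, in which SEC22B acts in fusion between the ER and the Golgi. All 7 tested probe sets had a log2 difference below 0, from -0.37 to -0.01, and none passed or reached an unadjusted p under 0.05. SEC22B MmugDNA.41153.1.S1_at had 311.4, 232.9, 373.5 and 366.1 in vitro, against 253.8, 480.2, 303.5 and 423.9 in vivo (log2 difference -0.16). The in vitro range lay inside the in vivo range apart from replicate 2.

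The remaining members with SEC symbols work before or beside this route. SEC61A1, SEC61B and SEC61G form the channel through which new proteins enter the ER, SEC62 and SEC63 assist it, and SEC11A and SEC11C cut off signal peptides. None of their 14 tested probe sets passed. At an unadjusted p under 0.05, 1 was higher (4.7% of all) and 0 lower (5.53% of all). SEC62 had 4091, 3663, 3469 and 3028 on MmugDNA.25231.1.S1_at in vitro, against 3293, 2657, 1665 and 1969 in vivo (log2 difference 0.61, limma adjusted p = 0.335). In vivo replicate 1 was the array that overlapped, and the other SEC62 probe sets gave -0.25 and -0.03. SEC61B had 6293, 6672, 5859 and 5057 in vitro, against 5979.9, 5669, 4010.3 and 6242 in vivo (log2 difference 0.14). SEC14L1, a lipid-transfer protein, had the smallest spread of all 105 on MmugDNA.27385.1.S1_at, at 5633 ± 474 in vitro and 5560 ± 291 in vivo (SD, n = 4 each; log2 difference 0.02).

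Probe sets of the same gene often differed. Of 32 genes with at least 2 tested probe sets, 16 had log2 differences of the same sign on all of them. The median gap between the highest and lowest was 0.41, and it exceeded 1 for 4 genes, KDELR2, TRAPPC2L, GOLGA2 and SEC11A. KDELR2 was the only gene of these 4 whose tested probe sets shared a sign. However, MmugDNA.36491.1.S1_s_at and MmugDNA.21919.1.S1_s_at were tested only through their in vivo arrays, so the filter itself favoured that sign.

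**Figure D4:**
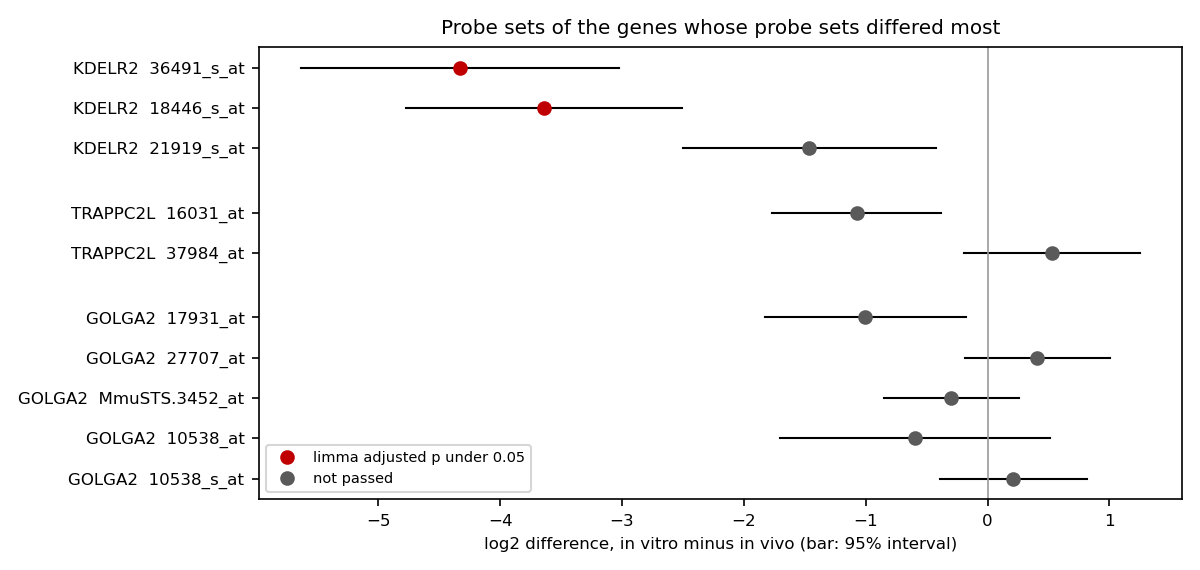
Log2 difference (in vitro minus in vivo) with its 95% interval for each tested probe set of the 3 genes with the widest gaps, red where the limma adjusted p was under 0.05. The tested KDELR2 probe sets all lie below 0, from -4.33 to -1.46, whereas those of TRAPPC2L and GOLGA2 lie on both sides of 0. KDELR2 MmugDNA.36491.1.S1_s_at and MmugDNA.21919.1.S1_s_at were tested only through their in vivo arrays.

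Genes of the route that the symbol rule leaves out, such as ARF GTPase-activating proteins, cargo receptors and YIP1 family proteins, were read from the same fit. Of 65 listed, 53 were on the array, with 108 tested probe sets of 52 genes. None passed. At an unadjusted p under 0.05, 10 were lower in vitro (9.26%, against 5.53% of all probe sets) and 1 was higher (0.926%, against 4.7% of all). Without overlap, 9 were lower in vitro (8.33%, against 3.11% of all) and 0 were higher, where 3.17% of all were. The median log2 difference of the list was -0.05, against 0.01 for all tested probe sets. Of the 108, 60 were below 0, where 49.3% of all were. ARFGAP2, a GTPase-activating protein for ARF1 on COPI vesicles, had 201 ± 52.0 in vitro and 451 ± 56.7 in vivo (SD, n = 4 each). Its log2 difference of -1.15 was just outside the threshold (limma adjusted p = 0.0588). CNIH4, of the cornichon family of cargo receptors, was at -0.97 on one probe set (limma adjusted p = 0.205). Its other tested probe sets included values of -0.34 and -0.13, with groups that overlapped. YIF1A, a Golgi and ER membrane protein, was at -0.92 (limma adjusted p = 0.322). BCAP31, an ER membrane protein that sorts membrane cargo, was at -0.62 (limma adjusted p = 0.315), and at -0.49 on another probe set whose groups overlapped.

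Proteins of the ER lumen of the kind that KDEL receptors return were listed as well. Of 39 genes, 29 were on the array, with 52 tested probe sets of 28 genes. None passed. At an unadjusted p under 0.05, 2 were higher (3.85%, against 4.7% of all) and 2 lower (3.85%, against 5.53% of all). The median log2 difference was 0.08. SERPINH1, a collagen chaperone, had 440.4 ± 34.2 on MmuSTS.4620.1.S1_at in vitro and 869 ± 183 in vivo (SD, n = 4 each; log2 difference -0.94, limma adjusted p = 0.0935). Its other tested probe set gave 0.60. FKBP9, a peptidyl-prolyl isomerase, was at -0.83 (limma adjusted p = 0.238) and SIL1, an exchange factor for the chaperone BiP, at -0.46. UGGT1, which checks the folding of glycoproteins, was at 0.86 (limma adjusted p = 0.361).

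Regulators of the unfolded protein response, which senses misfolded proteins in the ER, had 38 tested probe sets of 25 genes, of 34 listed and 27 on the array. None passed. At an unadjusted p under 0.05, 2 were higher (5.26%, against 4.7% of all) and 0 were lower, where 5.53% of all were. DERL1 and EDEM2, which act in the removal of misfolded proteins, were at log2 differences of 0.44 and 0.42. XBP1, a transcription factor of the response, was at -0.57, and ATF6B, a related sensor, at 0.61 (limma adjusted p of 0.504 and 0.508).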

How the data were processed

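Per the submitters' processing notes the authors made the deposited intensity values with MAS5, whose version is not given in the sources used here. No step was taken on the deposited values beyond those given here, and depth has no counterpart on an array, where the number of arrays limits precision. Probe sets took their gene from the platform annotation (24956 had 1 symbol, 361 several and 27449 none), and Entrez identifiers of 132 of the 135 were found in RefSeq's T2T-MMU8v2.0 table, with 0 symbols changed. The order of genes in that table gave the neighbours of KDELR2, and no coordinates or sequences are printed.

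Groups come from the sample titles. A pseudocount of 8.2, the 25th percentile of signals outside the 99 controls, was added before log2, so differences of dim transcripts are understated. The brighter 50% of probe sets by mean log2 value were tested with limma 3.58.1 in R 4.3.3 (lmFit, eBayes with an intensity trend, Benjamini-Hochberg at 0.05). Background was the 95th percentile of 59 unspiked control probe sets on each array. Where a whole group was at or below it, the fold is a bound.

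Members, lists, tests and alternatives were chosen with earlier results of these data known, KDELR2 among them. Named were all KDELR probe sets, up to 4 per family by smallest p, those without overlap, the widest gaps, the 3 steadiest and up to 4 genes per list. Not all of these are printed, and other probe sets of the same gene are given for some genes only. In simulated data with 50 probe sets changed at each size among 26383, the fit recovered 18.0% of 2-fold, 60.0% of 4-fold and 90.0% of 8-fold changes. Alternatives were other pseudocounts, filters, normalizations, variance models and covariates, a replicate block and each array left out.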

Additional observations from a re-analysis of the deposited data

Results flagged for a closer look

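Among 134 groups of 4 arrays checked for the named probe sets, 11 (8.21%) had an array whose gap to the nearest other array took up most of the group's range, a share to read against about 1 in 20 by chance. KDELR2 MmugDNA.36491.1.S1_s_at was at 18.9 on in vitro replicate 4, with the other in vitro arrays at 2.2 to 3.6, all at or below background. In vitro replicate 4 was also apart on ARF3 MmugDNA.38997.1.S1_at, at 1512.3 against 2087 to 2208 on the others.

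In vitro replicate 3 stood low on COG7 (180.9, against 244.7 to 258.1) and on FKBP9 (470.4, against 576.7 to 595.4), and high on COPZ2 (47.9, against 35.9 to 37.7). In vitro replicate 2 stood high on both COPZ1 probe sets, at 278 (others 236.0 to 237.9) and 82.3 (others 59.5 to 59.6), and on SIL1 (266.7, others 197.2 to 201.3). In vitro replicate 1 stood low on DERL1 (479, others 609.9 to 628.5). In vivo replicate 3 stood high on SEC14L2 (140.3, others 81.8 to 83.4) and on YIF1A (799.8, others 308.6 to 357.5).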

How the results depend on the processing

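The count of 2 ER to Golgi probe sets past the adjusted threshold was 1 with the upper-quarter filter, where only KDELR2 MmugDNA.18446.1.S1_s_at was bright enough to be tested and passed. It was 0 without an intensity trend (log2 differences -4.33 and -3.64 at limma adjusted p of 0.0932 and 0.127) and 5 with the EEF1A1 ratio as a covariate, where KDELR2 MmugDNA.21919.1.S1_s_at (-1.75), SEC31A and TRAPPC2L also passed and calls over all probe sets rose to 292, against 38 without it. Leaving out each array in turn gave 1 to 3: log2 differences ran from -4.94 to -3.70 for KDELR2 MmugDNA.36491.1.S1_s_at, which passed each time, from -4.23 to -3.11 for MmugDNA.18446.1.S1_s_at, and from -1.96 to -1.04 for MmugDNA.21919.1.S1_s_at, which passed only without in vivo replicate 4. The looser count of 5 was 3 with the median signal as pseudocount and 1 with the upper-quarter filter, and 4 to 6 with an array left out. Groups without overlap, 3 in all, numbered 5 to 13 with an array left out, which is 4.76% to 12.4% of members against 8.75% to 11.8% of all probe sets. The 10 KDELR pairs numbered 0 to 12, at 0 when any in vitro array and at 10 to 12 when any in vivo array was left out. The 2 pairs of KDELR2 MmugDNA.36491.1.S1_s_at with another KDELR2 probe set, adjusted over those 2, numbered 0 with the median pseudocount (exact permutation p before adjustment of 0.629 and 0.0286) and 0 to 2 with an array left out. ARFGAP2 passed (1 gene of its list) with no filter, the upper-quarter filter, array weights and the EEF1A1 covariate. Of the luminal list, SERPINH1 passed (1) with array weights, SERPINH1 and FKBP9 (2) with the EEF1A1 covariate, and 0 to 1 with an array left out, SERPINH1 without in vivo replicate 4. Of the unfolded protein response list, HERPUD1 passed (1) with the EEF1A1 covariate. The cause of these changes was not tested. Of 1163 values of 62 other named probe sets under 19 alternatives, 10 newly passed, 0 were reversed past a threshold, and 10 that had not passed changed sign. Same-numbered pools did not deviate together (correlations of -0.05 to 0.02). The labels do not say what the numbers mean, and these correlations cannot tell whether such pools shared an animal or day. With the replicate block the count stayed at 2, at limma adjusted p of 0.0116 and 0.0141. Signal over background limits KDELR2, whose in vitro arrays lay at or near background.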
